A study of Mus musculus with 25 samples.

Results

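Germ cells of mice that lack Ythdc2 are known to leave the spermatogonial state without completing the passage into meiosis. The comparison described here, called a step, runs from the cluster that the authors named differentiating spermatogonia to a mixed cluster. That is the first of their clusters whose name mixes differentiating spermatogonia with leptotene and zygotene cells. Leptotene and zygotene are the opening stages of meiotic prophase. The direction of the step is taken from the cluster names, and an order in time was not tested. Cells were chosen by the authors' deposited cluster names and by genotype, and the comparison was made within each knockout (KO) library. It holds 2376 of the 4528 cells of the deposited single-cell data: 529 spermatogonia and 592 cells of the mixed cluster in one KO library, called KO A here, and 814 and 441 in the other, KO B. The same step in the wild type (WT), from 654 spermatogonia to 427 leptotene-zygotene cells of 1 library, served for comparison. Only 24 WT cells fell in the mixed cluster, so the later cluster of the comparison differs between the genotypes by name.

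All 3 libraries are single-cell RNA-seq of sorted cells with a 4N DNA content from mice at postnatal day 10 (P10). Such a sort takes both cycling cells that have replicated their DNA and cells in meiotic prophase. The genotypes are given as Ythdc2 KO and WT. The KO line is said to have been reported before, and its deleted part is not described in the labels, whose further mutant lines were made on a hybrid B6D2F1 background. Sample titles add the word embryo, whereas the age label gives P10 only and was followed; the extraction protocol names testes as the source. The labels do not say if KO A and KO B are separate animals. The p-values thus describe how far these libraries vary, part of which may be technical.

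YTHDC2 is an RNA helicase with a YTH domain, the fold that binds RNA carrying N6-methyladenosine. It works in a complex with MEIOC, and male and female germ cells without either protein make an early attempt at meiosis, enter an abnormal metaphase and die. Entry into meiosis in mice depends on retinoic acid, which switches on Stra8 in differentiating spermatogonia. STRA8 and its partner MEIOSIN then activate a broad set of genes: cohesins and axis proteins that organise the chromosomes into loops, the machinery that makes and repairs programmed double-strand breaks, and the synaptonemal complex that joins homologous chromosomes.

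Levels are given as normalised UMIs per cell, the mean over the cells of a cluster of each cell's UMI count divided by its size factor. A step is the log2 of the level in the later cluster over that in spermatogonia, with 0.01 added to both. The KO step is the mean over KO A and KO B, given with its standard error (SE), and was tested with limma, paired within library, over 9503 genes. A gene is said to rise or fall where its Benjamini-Hochberg adjusted p is under 0.05. With 2 pairs the smallest exact two-sided p is 0.5, so the adjusted p-values depend on the spread limma pools over genes (1 residual and 552 prior degrees of freedom). A call and its SE set the mean step against that pooled spread, and a gene's own agreement between KO A and KO B carries little weight. Mex3d, with steps of -0.48 in KO A and 0.03 in KO B, was called lower. The clusters were made by the authors from the same cells, so calls are not independent evidence that the clusters differ.

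The Ythdc2 transcript checked the labels. It went from 0.57 to 0.624 in KO A, from 0.519 to 0.666 in KO B and from 1.95 to 3.14 in WT, and stood at 2.9 in the 24 WT cells of the mixed cluster. Both KO libraries were below WT in each cluster, and transcript remained detectable. The small KO step of 0.24 (SE 0.107, limma adjusted p = 0.0386) was no longer called in several alternatives, among them thinned cells (0.26).

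Depth and quality moved with the step. Median UMIs per cell fell from 9669 to 8149 in KO A and from 11798 to 8563 in KO B, and the median mitochondrial share went from 9.8% to 10.4% and from 7.03% to 9.02%. In WT the medians were 14305.5 and 12210 UMIs and 5.68% and 5.5%. Summed over cells, the 4 KO groups held 3940439 to 11225675 UMIs. Markers of Leydig, myoid, stromal, macrophage and endothelial cells were all too low to test, with list sums of at most 0.0713 normalised UMIs per cell in any KO group. Of 7 Sertoli markers only Clu was tested; it rose by 0.83 in KO, with a WT step of 0.85. The sum over the Sertoli list went from 0.0897 to 0.181 in KO A, from 0.11 to 0.181 in KO B and from 0.0945 to 0.178 in WT, most of it Clu, and its part in the results was not tested. Summed over 14 markers of differentiating spermatogonia, that cluster held 27.5 normalised UMIs per cell in KO A, 27 in KO B and 27.6 in WT, and the mixed cluster held 26.7 and 27.7 in KO A and KO B. The sum hides opposite moves, since Prss50 went from 5.7 to 13.3 and from 5.31 to 13.3 while most members fell. No cell barcode was shared between the libraries.

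Over all genes, 2849 of 9503 (30%) were higher and 3313 (34.9%) were lower in the mixed cluster than in KO spermatogonia. Most of these changes were small: 79.4% of the called genes moved by under 1 on the log2 scale, and 604 rose and 666 fell by at least 1. The steps of KO A and KO B had the same sign in 86.7% of genes, with a Pearson correlation of 0.91 across genes, which are not independent replicates. The WT step was wider, with a standard deviation over genes of 1.02 against 0.69 in KO. Across the 9393 genes tested in both, KO and WT steps correlated with r = 0.69 and the slope of KO on WT was 0.46.

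The genes that move in WT show which part of the step was made. Of 909 genes that rose by at least 1 (log2) in the WT library and reached 20 CPM (counts per 1000000 UMIs) there, 85.3% also rose in KO, beside 30% of all genes tested. Their median step was 1.47 in WT and 0.78 in KO. The KO step could not be told from the WT step in 215 of them (median 1.12 in KO and 1.28 in WT), was called smaller in 547 (0.75 and 1.62) and larger in 13. Another 110 genes had no called KO step and a called difference (0.13 and 1.31), and 24 went the opposite way. Difference here means the KO step minus the WT step, tested in limma over 9477 genes, of which 2546 (26.9%) were higher and 1922 (20.3%) were lower. The lone WT library is assumed there to vary as the KO libraries do, with an infinite prior for the shared spread.

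Of 1040 genes that fell by at least 1 in WT, 78.1% also fell in KO, beside 34.9% of all genes. Their median fall was 1.41 in WT, where the KO step taken in the same direction had a median of 0.59. The fall was not called different in 189, smaller in 613 and larger in 10. In 186 no KO step was called, and 42 rose in KO. A set chosen for a large step in one genotype favours that genotype, so the reverse choice is given as well. Among 426 genes that rose by at least 1 in KO, the median step was 1.28 in KO and 1.47 in WT, and 307 rose by at least 1 in WT too. Of these 426, 94 were called larger in KO, 26 of them with a WT step of 0 or below. Among 402 genes that fell by at least 1 in KO, the median fall was 1.30 in KO and 1.41 in WT, and 264 fell by at least 1 in WT. Of these, 116 fell further in KO by the test, 49 of them with a WT step of 0 or above.

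**Figure D1:**
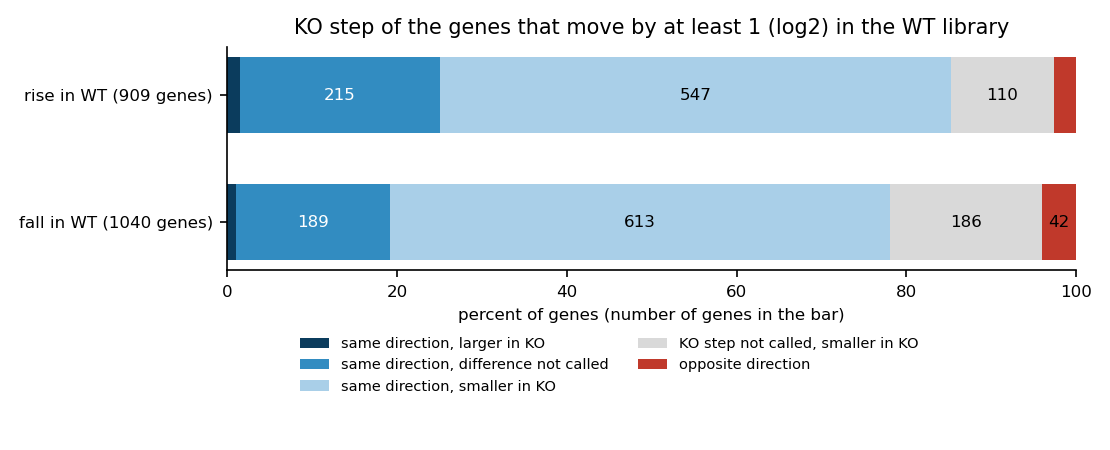
Genes that rise (909) or fall (1040) by at least 1 on the log2 scale in the WT library, split by their step in KO; the x axis is the percent of genes, and numbers in the bars count genes. The widest class in both bars is the same direction with a smaller KO step, 547 and 613 genes.

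Of 10 tested genes of a meiotic entry list, 5 rose, 0 fell and 5 were not called, beside 30% and 34.9% over all genes, with a median KO step of 0.28 against 1.14 in WT. Stra8 encodes the retinoic acid induced activator of the meiotic programme. It went from 4.54 to 11.7 in KO A, from 5.98 to 10.9 in KO B and from 3.35 to 19.3 in WT. Both KO libraries rose 2.15-fold in the mean, without overlap between the clusters, from levels above WT to levels below it. Their step was 1.11 (SE 0.0757, limma adjusted p = 8.13e-40), and it was smaller than the WT step by 1.41 (SE 0.133, adjusted p = 3.44e-24). The 24 WT cells of the mixed cluster were at 5.27, below both KO libraries.

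Its partner Meiosin, listed as Gm4969, went from 0.0644 to 0.293 in KO A, from 0.0743 to 0.301 in KO B and from 0.234 to 0.991 in WT. Its KO step of 1.96 (SE 0.182, limma adjusted p = 2.5e-23) was not called different from the WT step of 2.04 (difference -0.08, SE 0.269, adjusted p = 0.826). The KO level was below WT at both ends, so a step of like size ended at 0.293 and 0.301 where WT reached 0.991. Zcwpw1, which encodes a reader of the histone marks that PRDM9 writes, rose by 0.98 in KO and 1.48 in WT.

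Figla had the widest difference of the entry list. Figla, a helix-loop-helix factor known from oocytes, went from 0.115 to 0.143 in KO A, from 0.088 to 0.101 in KO B and from 0.164 to 1.54 in WT. It was not called in KO (0.24, limma adjusted p = 0.295) and the difference was -2.93 (SE 0.286). Eaf2, an elongation factor partner that is not on this list and is named for its wide difference, went from 0.215 to 0.253, from 0.193 to 0.257 and from 0.351 to 2.73 in the same order. Its KO step of 0.31 was not called either (limma adjusted p = 0.0713), and the difference was -2.61. Both genes were thus at or near their spermatogonial level in the KO mixed cluster while the WT library rose to 1.54 and 2.73. Meioc, whose protein is the binding partner of YTHDC2, was not called in KO (0.07) and had a WT step of 0.63.

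**Figure D2:**
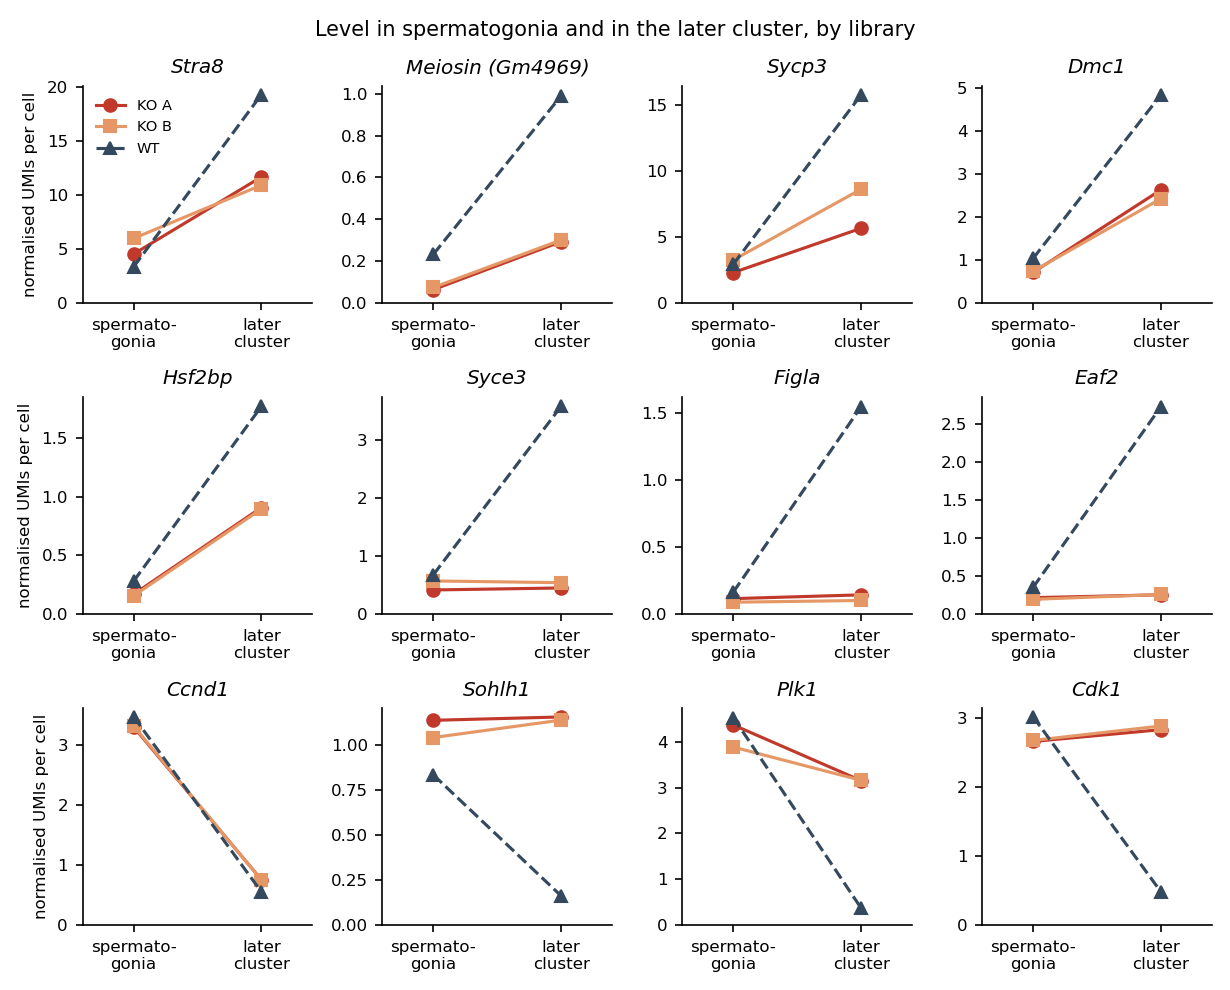
Level in normalised UMIs per cell (y axis, linear from 0) in spermatogonia and in the later cluster (x axis) for 12 genes; circles are KO A, squares KO B and triangles WT. Stra8, Sycp3 and Dmc1 rise in all 3 libraries. Syce3, Figla and Eaf2 rise in the WT library and are not called over all KO cells. Sohlh1, Plk1 and Cdk1 keep most of their level in KO.

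Promoter sequence is shown because genes of the same programme fell into 3 kinds: a step like WT, a smaller step, and none called. The motif CNCCTCAG (CTGAGGNG on the other strand), which has been reported under STRA8 binding sites, was searched on both strands of RefSeq promoter windows (GRCm38.p6, 250 bases before to 50 after the start), as 1 of 6 motifs. Stretches around one match upstream of the start are printed 5′ to 3′ on the gene's strand, with the motif in capitals. The first pair made a step not called different from WT, the second a smaller one, and the last pair none called.
Gm4969 (chr7:19118351-19118418, minus strand): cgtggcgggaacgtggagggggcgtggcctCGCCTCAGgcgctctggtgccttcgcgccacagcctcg
Pparg (chr6:115361080-115361143, plus strand): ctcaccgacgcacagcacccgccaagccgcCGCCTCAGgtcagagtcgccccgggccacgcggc
Prdm9 (chr17:15564358-15564425, minus strand): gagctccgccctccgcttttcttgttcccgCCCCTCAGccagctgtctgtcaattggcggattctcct
Msh5 (chr17:35046667-35046734, minus strand): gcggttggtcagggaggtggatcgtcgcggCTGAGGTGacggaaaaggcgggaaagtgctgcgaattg
Figla (chr6:86017070-86017137, plus strand): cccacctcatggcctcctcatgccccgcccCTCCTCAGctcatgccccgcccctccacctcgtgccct
Eaf2 (chr16:36828431-36828498, minus strand): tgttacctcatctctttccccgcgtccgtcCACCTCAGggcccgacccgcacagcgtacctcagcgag

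The motif was in 7.94% of all 32851 promoter windows and in 9.77% of those of tested genes (7724 of 9503 matched a window). It was in 19.4% of the windows of genes that rose in WT (762 of 909 matched) and in 5.98% of those that fell (838 of 1040 matched). Within the risers it was in 22.6% of windows of genes with a smaller KO step and in 18% of those with no called KO step, so it was present in both kinds. WT risers with the motif had a median KO step of 0.81 and those without it 0.75. In WT the same medians were 1.51 and 1.44. For the risers whose difference was not called, only 165 of 215 genes (76.7%) had a window, under the minimum of 80% used here, so the check was void and no share is given. A match is a description of letters in the window and shows neither binding nor a cause.

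Genes of meiotic prophase rose together in KO, at a smaller step than in WT. Pooled over 6 lists, 42 of 57 tested genes rose, 3 fell and 12 were not called, beside 30% and 34.9% over all genes. The median KO step was 0.80, against 1.47 in WT and -0.05 for all genes in KO. For the difference, 33 were lower in KO, 5 higher and 19 not called, beside 20.3% lower and 26.9% higher over all genes. These shares over all genes also stand beside the counts of each single prophase list below. DESeq2 called fewer, 19 lower and 0 higher of 60 tested for the difference, where limma called 36 and 5 of 60. The genes beyond the 57, Spo11 among them, passed the filter only through the WT groups, so their calls are no test of a difference. The cells of the mixed cluster also held less ribosomal protein mRNA and fewer UMIs, as given further on. In KO cells of like ribosomal share and depth, 43 of the 57 rose and 4 fell, with a median of 0.79.

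Axis and cohesin genes rose in 7 of 8 cases (median 0.97 in KO, 1.65 in WT), and 1 fell. Sycp3, the core of the lateral element, went from 2.3 to 5.65 in KO A, from 3.25 to 8.6 in KO B and from 2.94 to 15.7 in WT. The KO values of the 2 clusters did not overlap, and the mixed cluster stayed below WT in both libraries. Its KO step was 1.35 (SE 0.0732, limma adjusted p = 3.89e-57) and the difference -1.07 (SE 0.13). Hormad1, an axis protein that monitors synapsis, went from 1.21 to 2.46, from 1.56 to 2.96 and from 2.48 to 8.22 (KO A, KO B, WT). It rose by 0.97 in KO and by 1.73 in WT. Hormad2 rose by 1.43 (WT 2.39).

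The cohesin subunits did not move alike. Stag3, of the meiotic cohesin ring, went from 1.49 to 2.88 in KO A, from 1.35 to 2.71 in KO B and from 3.05 to 4.84 in WT. Its KO step of 0.97 was larger than the WT step of 0.67 by 0.30 (limma adjusted p = 0.0461), a difference not called in edgeR. Smc1b went from 5.28 to 8.2, from 5.4 to 7.86 and from 8.02 to 22.3, a KO step of 0.59. Rad21l, a kleisin of meiotic cohesin, rose by 1.65 in KO and by 3.68 in WT, the widest difference of this list (-2.03, SE 0.284). Rec8, the other meiotic kleisin, fell slightly, from 1.43 to 1.25 in KO A, from 1.27 to 1.07 in KO B and from 1.26 to 0.661 in WT. The KO step of -0.22 was not called with TMM scaling (-0.10), in edgeR or in thinned cells (-0.14), while its WT step was -0.91. Sycp2 rose by 0.23 in KO where WT rose by 1.57.

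In the central region of the synaptonemal complex, 4 of 6 genes rose and 2 were not called (median 0.81 in KO, 1.62 in WT), and all 6 differences were called lower in KO, against 3 in thinned cells and 4 in DESeq2. Syce3, a central element protein, went from 0.415 to 0.449 in KO A, from 0.57 to 0.54 in KO B and from 0.68 to 3.58 in WT. It had no called step in KO (0.02, limma adjusted p = 0.902), and the difference was -2.36 (SE 0.17, adjusted p = 4.7e-41). In the 24 WT cells of the mixed cluster it stood at 0.547, beside the KO values. Sycp1, the transverse filament, went from 7.79 to 8.93 in KO A, from 9.36 to 9.32 in KO B and from 13.5 to 20.1 in WT, with no called KO step (0.09). Its level was already high in spermatogonia of all 3 libraries, and its WT step was 0.58. Tex12 rose by 1.01 (WT 2.07), Syce1 by 0.97 (WT 1.48), Syce2 by 0.66 (WT 1.76) and 4930447C04Rik, known as Six6os1, by 1.06 (WT 1.43). In KO cells of like ribosomal share all 6 genes were called higher, Syce3 and Sycp1 among them.

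Of 8 tested genes that make or place double-strand breaks, 6 rose, 1 fell and 1 was not called (median 0.80 in KO, 1.41 in WT). Prdm9, the histone methyltransferase that places the breaks, went from 0.349 to 1.1 in KO A, from 0.397 to 0.936 in KO B and from 0.501 to 2.92 in WT. It rose by 1.42 in KO (SE 0.105, limma adjusted p = 1.92e-34), less than in WT by 1.10. Gm960, the TOPOVIB-like partner of SPO11, rose by 1.49 (WT 2.19). Mei4, of the complex that allows SPO11 to cleave, went from 0.15 to 0.317, from 0.168 to 0.319 and from 0.303 to 0.633 in KO A, KO B and WT. Its KO step of 0.96 resembled the WT step of 1.04 (difference -0.08, limma adjusted p = 0.819), but fell to 0.49 and lost its call in cells of like ribosomal share. Ccdc36, also called Iho1, rose by 0.63 in KO and by 2.36 in WT, and lost its KO call in the same cells (0.32). Cxxc1 fell by 0.50 on the log2 scale.

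Spo11, which makes the breaks, was too low in KO to test. Its level went from 0.018 to 0.00137 in KO A and from 0.00634 to 0.0214 in KO B, and from 0.0296 to 0.25 in WT. The KO libraries moved in opposite directions. In spermatogonia a UMI of Spo11 was found in 1.89% of KO A, 0.86% of KO B and 4.13% of WT cells. In the later clusters it was found in 0.169% and 1.81% of the mixed cluster cells of KO A and KO B, in 19% of WT leptotene-zygotene cells and in 16.7% of the 24 WT cells of the mixed cluster. Spo11 passed the filter for the difference only through the WT leptotene-zygotene cells, so no test is given.

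Of 14 strand exchange genes, 8 rose, 1 fell and 5 were not called (median 0.58 in KO, 0.72 in WT). Dmc1, the meiotic recombinase, went from 0.714 to 2.63 in KO A, from 0.739 to 2.43 in KO B and from 1.04 to 4.84 in WT. The 2 KO libraries were close to each other and rose 3.48-fold, by a step of 1.78 (SE 0.0828, limma adjusted p = 9.8e-73). The difference from WT, -0.42 (adjusted p = 0.00694), was not called in thinned cells (-0.23). Hsf2bp, which brings BRCA2 to meiotic breaks, went from 0.169 to 0.909, from 0.156 to 0.897 and from 0.281 to 1.77. It rose by 2.41 in KO (SE 0.127, limma adjusted p = 5.21e-60), and the difference of -0.21 (SE 0.198) was not called.

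Other members fell short of WT. Rad51ap2 had the largest KO step of the list, from 0.0119 to 0.17 in KO A and from 0.00609 to 0.163 in KO B, but WT went from 0.0347 to 1.53. Its steps were 3.23 in KO and 5.10 in WT. The KO spermatogonial levels of Rad51ap2 were near the 0.01 added, so the size of its KO step depends on that addition. It passed the KO filter only through the mixed cluster, so its KO call is no test. Brca2 rose by 0.56 (WT 1.52). Swi5 and Sfr1, a pair of recombinase cofactors, were not called in KO (0.08 and 0.06) and had WT steps of 0.70 and 0.88. Rpa2, of the single-strand binding complex, fell by 0.57 on the log2 scale in KO and by 0.59 in WT.

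Among 14 crossover genes 11 rose, 0 fell and 3 were not called (median 0.75 in KO, 1.13 in WT); the median difference of -0.36 turned to 0.06 in thinned cells. Hfm1, a helicase for crossovers, went from 0.181 to 0.55 in KO A, from 0.116 to 0.509 in KO B and from 0.14 to 1.77 in WT. Its steps were 1.80 in KO and 3.57 in WT. Msh5 rose by 1.61 (WT 2.92), and Msh4, its partner in the complex that stabilises crossovers, by 1.53 (WT 1.95, difference not called). Telomere attachment genes, which tie chromosome ends to the nuclear envelope, rose in 6 of 7 cases with the highest median of the 6 lists (1.49 in KO, 2.26 in WT). Of their 7 differences 6 were called lower in KO, against 3 in thinned cells and 2 in DESeq2. Spdya, the activator of CDK2 at telomeres, went from 0.0998 to 0.818, from 0.0741 to 0.681 and from 0.112 to 2.77. It rose by 2.98 in KO and by 4.51 in WT. Terb1, of the telomere complex, rose by 2.12 (WT 3.82), and Cdk2 itself was not called (0.10).

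**Figure D3:**
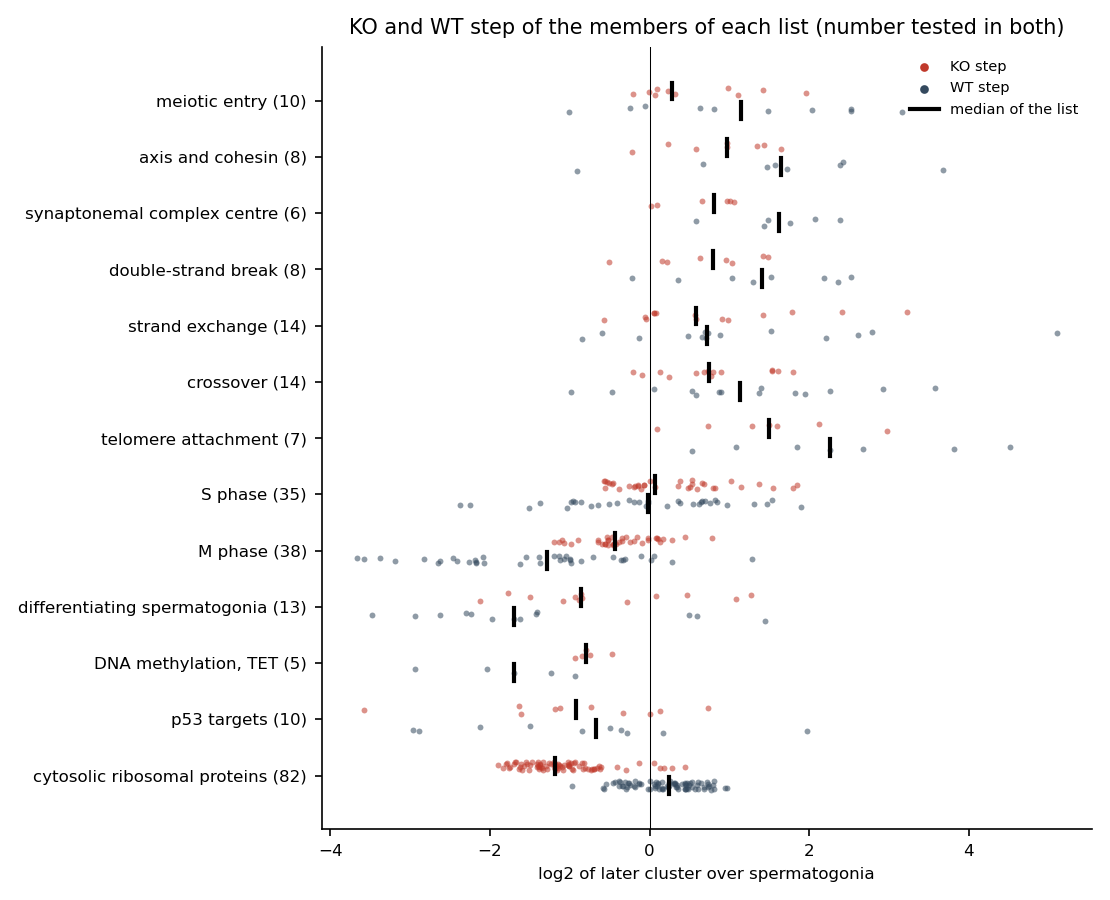
Step of each member (points, log2 of the later cluster over spermatogonia, x axis) by gene list (y axis, number tested in both genotypes), with KO in red above WT in dark blue and a black bar at each median. Prophase medians lie right of 0 in both genotypes and lower in KO; M phase medians are -0.43 in KO and -1.28 in WT, and those of cytosolic ribosomal proteins lie on opposite sides of 0.

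Genes known from pachytene, the stage after zygotene, were mixed: of 8 tested, 3 rose, 2 fell and 3 were not called, beside 30% and 34.9% over all genes. Mybl1, a transcription factor that drives the pachytene programme, went from 0.142 to 0.706 in KO A, from 0.156 to 0.793 in KO B and from 0.128 to 1.09 in WT. Its step was 2.25 in KO and 3.00 in WT. Ccnb3, a cyclin of early prophase, was not called in KO (-0.08) and had a WT step of 0.87 (difference -0.95, limma adjusted p = 0.00135). Piwil1 and Ccna1 were too low to test, with levels of at most 0.0238 and 0.0143 in the KO groups. Of 14 piRNA genes 6 rose and 3 fell, beside 30% and 34.9% over all genes, and in cells of like ribosomal share 3 rose. Gtsf1 rose by 1.45 (WT 1.26) and Mael was not called (-0.03, WT 0.67).

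The spermatogonial programme was left in part. Of 13 tested genes of differentiating spermatogonia, 9 fell, 3 rose and 1 was not called, beside 34.9% falling and 30% rising over all genes. The median was -0.86 in KO and -1.69 in WT. Higher differences in KO were called for 11 of 13, beside 26.9% over all genes, against 4 in DESeq2. Ccnd1, a cyclin of G1, went from 3.31 to 0.755 in KO A, from 3.32 to 0.751 in KO B and from 3.48 to 0.553 in WT. It fell 4.4-fold in KO, a step of -2.12 (SE 0.0802, limma adjusted p = 5.45e-97), beside a WT step of -2.63. Uchl1 fell by 1.49 on the log2 scale (WT -1.98) and Lmo1 by 1.77 (WT -2.24). Each of these KO steps was smaller in size than the WT step.

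Regulators of the spermatogonial state also fell less than in WT or had no called step. Dmrtb1, a factor of the switch from spermatogonial differentiation to meiosis, went from 3.01 to 1.17 in KO A, from 2.52 to 1.43 in KO B and from 2.27 to 0.194 in WT. Its step was -1.08 in KO and -3.48 in WT (difference 2.40, SE 0.144). Sohlh1, a factor of spermatogonial differentiation, went from 1.14 to 1.16, from 1.04 to 1.14 and from 0.836 to 0.162. It did not change by the test in KO (0.08, limma adjusted p = 0.453), and the difference was 2.37 (SE 0.166). Kit, the receptor that marks differentiating spermatogonia, went from 1.12 to 0.868, from 1.04 to 0.914 and from 0.725 to 0.228. The KO fall of -0.28 was not called with TMM scaling (-0.13), in edgeR or in thinned cells (-0.21), whereas the difference of 1.35 was called. Dmrt1, which also restrains meiosis, went from 2.03 to 1.05, from 2.09 to 1.18 and from 2.11 to 0.782, with steps of -0.88 and -1.42. Prss50 rose by 1.27 in KO and 1.45 in WT.

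Of 18 undifferentiated markers only 2 were high enough to test, and both fell. Zbtb16, a transcriptional repressor present in spermatogonial stem cells, went from 0.367 to 0.0974 in KO A and from 0.37 to 0.127 in KO B (-1.64, WT -2.54). All 5 tested genes of DNA methylation and its removal fell in KO, by less than in WT, beside 34.9% falling over all genes. Dnmt3b, a de novo methyltransferase, went from 0.43 to 0.21 in KO A, from 0.444 to 0.24 in KO B and from 0.396 to 0.0428 in WT. Its steps were -0.93 and -2.94. Dnmt3a fell by 0.84 on the log2 scale (WT -1.69), Tet3 by 0.75 (WT -2.03) and Dnmt1 by 0.79 (WT -1.23).

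Genes of mitosis fell much less in KO than in WT. Of 38 M phase genes, 26 fell, 4 rose and 8 were not called in KO, beside 34.9% falling and 30% rising over all genes. The median was -0.43 against -1.28 in WT, and 29 differences were higher in KO, 3 lower and 6 not called, beside 26.9% and 20.3% over all genes. Plk1, a kinase of mitotic entry and spindle assembly, went from 4.37 to 3.15 in KO A, from 3.89 to 3.16 in KO B and from 4.53 to 0.37 in WT. Its step was -0.38 in KO (SE 0.0735) and -3.58 in WT, and the difference was 3.19 (SE 0.132, limma adjusted p = 3.26e-122). The KO mixed cluster thus held most of the spermatogonial level of Plk1, and the 24 WT cells of that cluster did so too, at 3.26.

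Cdk1, the mitotic kinase, went from 2.66 to 2.83 in KO A, from 2.68 to 2.88 in KO B and from 3.02 to 0.481 in WT. It was not called in KO (0.10, limma adjusted p = 0.238), against a WT step of -2.62. Its cyclin Ccnb1 went from 4.25 to 2.31, from 4.49 to 2.39 and from 5.18 to 0.49, falling by 0.89 on the log2 scale in KO and by 3.37 in WT. Aurka, a spindle pole kinase, went from 2.3 to 2.38, from 2.07 to 2.55 and from 2.71 to 0.373. The slight KO rise (0.17) turned to -0.01 in cells of like ribosomal share, and the difference was 3.00. Bub3, of the spindle checkpoint, differed by 3.14, with steps of -0.53 and -3.67. Ccna2 fell by 0.25 on the log2 scale in KO (WT -2.42).

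Mki67, the proliferation marker, went from 7 to 4.03 in KO A, from 10.1 to 3.94 in KO B and from 8.38 to 3.22 in WT (steps -1.07 and -1.38). Cdc25c fell by 1.19 on the log2 scale (WT -2.09) and Mad2l1 by 0.99 (WT 0.02). Bub1 rose in both genotypes, by 0.79 and 1.29. Top2a, an S to M phase topoisomerase, was not called in KO (0.13), with a WT step of 0.06.

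Genes of DNA replication moved both ways in KO. Of 35, 17 rose, 10 fell and 8 were not called, beside 30% and 34.9% over all genes. The median was 0.07 in KO and -0.02 in WT, and the KO median was -0.06 with a mean of at least 0.5. Of the differences 15 were higher in KO, 4 lower and 16 not called, beside 26.9% and 20.3% over all genes. Mcm5, a subunit of the replicative helicase, went from 2.18 to 3.92 in KO A, from 1.86 to 3.26 in KO B and from 2.27 to 4.44 in WT. Its KO step was 0.83 and the difference of -0.14 (SE 0.131) was not called. Ccne2, the cyclin of S phase entry, went from 0.72 to 2.08, from 0.715 to 2.17 and from 0.956 to 2.79, steps of 1.55 and 1.54. Rrm2, of nucleotide synthesis, rose by 1.37 (WT 0.82). Cdt1, a licensing factor, fell by 0.46 on the log2 scale in KO and by 2.25 in WT. Pcna moved by -0.25 in both genotypes, a KO step not called with TMM scaling (-0.17).

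Of 10 p53 targets 6 fell, 1 rose and 3 were not called, beside 34.9% and 30% over all genes (median -0.92 in KO, -0.67 in WT). Ccng1, a p53 target, went from 1.02 to 0.0977 in KO A, from 1.07 to 0.0623 in KO B and from 0.909 to 0.115 in WT. It fell 13-fold in KO, by a step of -3.58 (SE 0.142, limma adjusted p = 2.22e-90), and WT had -2.88. The KO fall was called larger, with a difference of -0.69 (SE 0.236). Trp53 itself fell by 1.60 on the log2 scale (WT -2.96), Bax by 1.12 (WT -1.50) and Cdkn1a, a cyclin-dependent kinase inhibitor, by 1.63 (WT -0.50). Of 17 DNA damage signalling genes, 8 rose, 3 fell and 6 were not called, beside 30% and 34.9% over all genes (median 0.16 in KO, 0.31 in WT). Chek2, a checkpoint kinase, fell by 0.76 on the log2 scale (WT -1.43), and Atr, the kinase of replication stress, rose by 0.59 (WT 1.62). Hus1b, of a DNA damage clamp, went from 0.0474 to 0.311, from 0.0466 to 0.275 and from 0.0992 to 0.548, steps of 2.41 and 2.35.

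Among 13 repressors of meiotic genes, 7 rose, 3 fell and 3 were not called, beside 30% and 34.9% over all genes. Their median was 0.22 in KO and 0.02 in WT. Pcgf6, of the polycomb complex that silences germline genes in other cells, went from 0.0594 to 0.73 in KO A, from 0.0595 to 0.522 in KO B and from 0.108 to 0.436 in WT. The KO step of 3.18 (SE 0.165, limma adjusted p = 1.24e-61) exceeded the WT step of 1.92 by 1.25 (adjusted p = 3.03e-05). Its partners Max and E2f6 went opposite ways: Max rose by 0.81 (WT 1.03) and E2f6 fell by 0.45 on the log2 scale (WT -1.94). Of 11 immediate early genes, 6 rose in KO and 3 fell, beside 30% and 34.9% over all genes (median 0.19 in KO, -0.93 in WT). In cells of like ribosomal share 3 rose, with a median of 0.03. Of 10 differences 8 were called higher, beside 26.9% over all genes, against 3 in DESeq2. Klf2, a zinc finger factor of that group, went from 0.407 to 1.07, from 0.372 to 1.13 and from 0.0883 to 0.134. It was higher in KO than in WT in both clusters. Dusp1, a phosphatase of that group, rose by 0.58 in KO and had a WT step of -2.32.

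**Figure D4:**
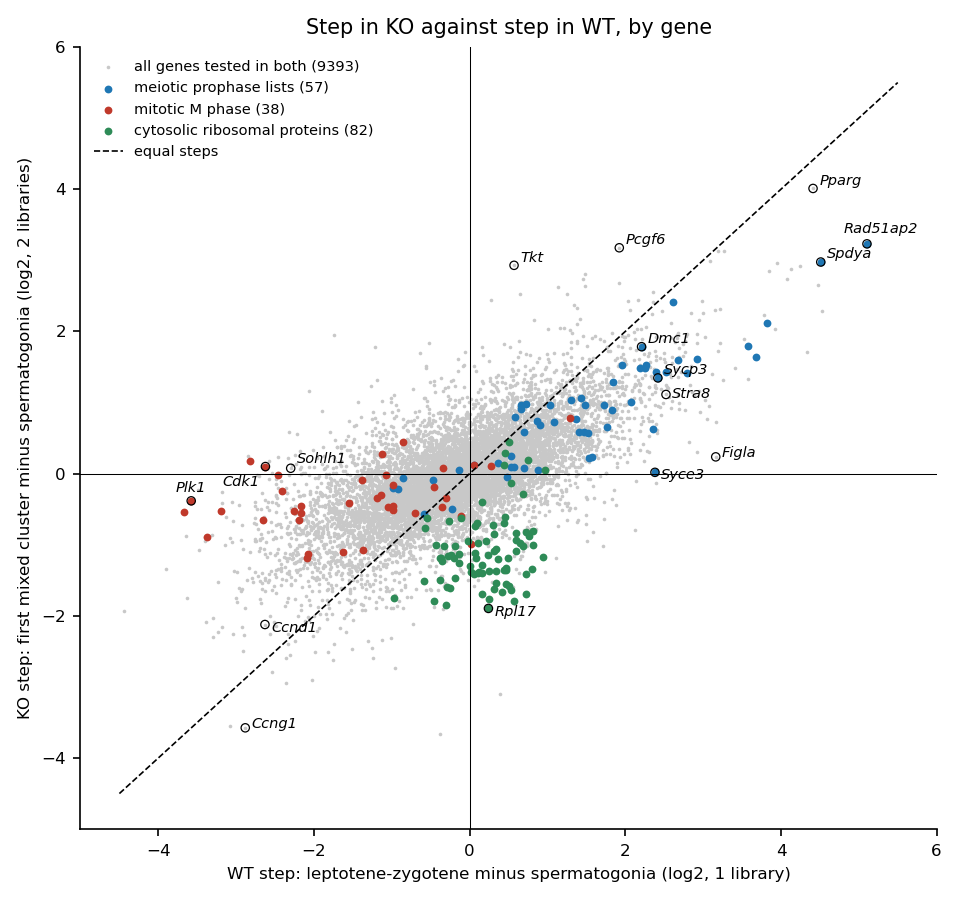
KO step (y axis, log2, mean of 2 libraries) against WT step (x axis, log2, 1 library) for the 9393 genes tested in both, with the prophase, M phase and cytosolic ribosomal protein lists coloured and the dashed line at equal steps. Pparg lies near the line, and Ccng1 falls further in KO (-3.58) than in WT (-2.88). Figla and Syce3 lie near a KO step of 0, and Plk1 and Cdk1 near 0 in KO at a WT step of -3.58 and -2.62.

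Among genes with at least 20 CPM, the largest rise was that of Pparg, a nuclear receptor, from 0.0097 to 0.289 in KO A, from 0.00606 to 0.265 in KO B and from 0.03 to 0.842 in WT. Its steps of 4.01 in KO and 4.41 in WT were not called different. Its KO spermatogonial levels were under the 0.01 added, so the size of the step depends on that addition. Without it the folds were 35.1 in KO and 28 in WT. Pparg passed the KO filter only through the mixed cluster, so its KO call is no test. Naa20, of an N-terminal acetyltransferase, went from 0.0827 to 0.795, from 0.0783 to 0.762 and from 0.0571 to 0.637, steps of 3.12 and 3.27. Ptpn9, which also passed the KO filter only through the mixed cluster, had steps of 2.99 in KO and 3.08 in WT. Others rose less than in WT: Rbpms2 (2.96 and 3.95), Pbx3 (2.91 and 4.25), H2-D1 (2.88 and 4.13) and Lmna (2.74 and 4.07). Some rose more. Tkt, transketolase of the pentose phosphate pathway, went from 0.0663 to 0.587 in KO A, from 0.061 to 0.517 in KO B and from 0.0405 to 0.065 in WT. Its KO step was 2.93 and the difference 2.36 (SE 0.326, limma adjusted p = 1.03e-11). Reep5 rose by 2.81 (WT 1.48) and Tchh by 2.73 (WT 1.45).

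The largest falls beside Ccng1 were those of Arid3a, Bst2, Sox11 and Lgmn. Arid3a, a DNA-binding factor, went from 0.224 to 0.00775 in KO A and from 0.209 to 0.0113 in KO B, a step of -3.54 not called different from WT (-3.08). Its levels in the mixed cluster were near the 0.01 added, so the size of the step depends on that addition. Bst2 (-2.73, WT -0.96), Sox11 (-2.63, WT -1.76) and Lgmn (-2.59, WT -1.24) fell further than in WT. Hbb-bs, a globin, had a nominal KO step of -3.67 that came from 1 KO A spermatogonium with 2748 globin UMIs. The most in any other cell of the 4 KO groups was 7. Without KO A the step was -0.30, and without that cell the gene was too low to test.

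The widest differences between the genotypes included genes that rose in one and fell in the other. Lpcat1, a lipid acyltransferase, went from 0.0553 to 0.178 in KO A, from 0.0413 to 0.255 in KO B and from 0.029 to 0.0017 in WT. It rose by 1.95 in KO and had a WT step of -1.74, a difference of 3.69 (SE 0.419). Both WT levels were low, at 2.47 and 0.184 CPM, so the size of the WT step depends on the 0.01 added. Lpcat1 passed the filter only through the KO mixed cluster, so its calls are no test. Tuba1b, an alpha tubulin, went from 0.287 to 0.586, from 0.267 to 0.676 and from 0.188 to 0.0375, a difference of 3.21. Mex3d, an RNA-binding protein, moved by -3.49 in WT, and its KO step of -0.22 came from KO A alone (KO B 0.03). In the other direction, Syn2 fell by 1.02 on the log2 scale in KO and had a WT step of 1.71. Atf7ip2, a regulator of the silencer SETDB1, went from 0.339 to 0.217 in KO A, from 0.379 to 0.183 in KO B and from 0.365 to 1.11 in WT (difference -2.40). Its KO step of -0.82 was not called in cells of like ribosomal share (-0.26).

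Messenger RNAs of cytosolic ribosomal proteins fell in KO as a group. Of 82, 76 fell, 1 rose and 5 were not called, with a median of -1.18, beside 34.9% falling over all genes. In WT the median step was 0.25, and 77 of the 82 differences were lower in KO, beside 20.3% over all genes. Rpl17, of the large subunit, went from 9.85 to 3.15 in KO A, from 16.3 to 3.66 in KO B and from 16.4 to 19.3 in WT, and stood at 5.87 in the 24 WT cells of the mixed cluster. Its KO step was -1.90 (SE 0.0749, limma adjusted p = 2.09e-91). Rps21, of the small subunit, went from 9.72 to 13.6 and from 15.9 to 13.6 and was not called. The 77 tested mitochondrial ribosomal proteins showed no such shift, with 20 higher and 24 lower, beside 30% and 34.9% over all genes. Their median of -0.05 turned to 0.07 in thinned cells.

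Per cell, ribosomal protein genes took a median of 7.92% of UMIs in KO A spermatogonia and 4.31% in its mixed cluster. In KO B the medians were 12.5% and 5%, and in WT 12.8% and 12.9%, with 5.06% in the 24 WT cells of the mixed cluster. Cells under 6% made up 30.2% and 11.9% of KO A and KO B spermatogonia and 88.5% and 73.9% of the mixed cluster cells of KO A and KO B. In WT they made up 18.8% of spermatogonia and 0% of leptotene-zygotene cells. A low share was therefore also found in part of the spermatogonia of all 3 libraries and in WT cells of the mixed cluster. Its part in the KO step was not tested beyond the values that follow. The difference between KO and WT steps could not be measured in cells under 6%, as no WT leptotene-zygotene cell was among them.

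The KO step was measured again in cells under 6% alone, an alternative chosen after seeing the data. This left 160 and 97 spermatogonia and 524 and 326 mixed cluster cells in KO A and KO B, with median depths of 8731.5 and 8977 against 8151 and 8710 UMIs. There 2250 genes rose and 2489 fell. Prophase genes rose as before (median 0.79 against 0.80), all 6 synaptonemal complex genes rose (0.98) and the entry list had a median of 0.61 against 0.28. The double-strand break list went from 0.80 to 0.45, with 4 of 8 rising. M phase genes fell by a median of 0.27 on the log2 scale, differentiating spermatogonia genes had a median of -0.80, and ribosomal protein genes, on whose share these cells were chosen, one of -0.24.

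**Figure D5:**
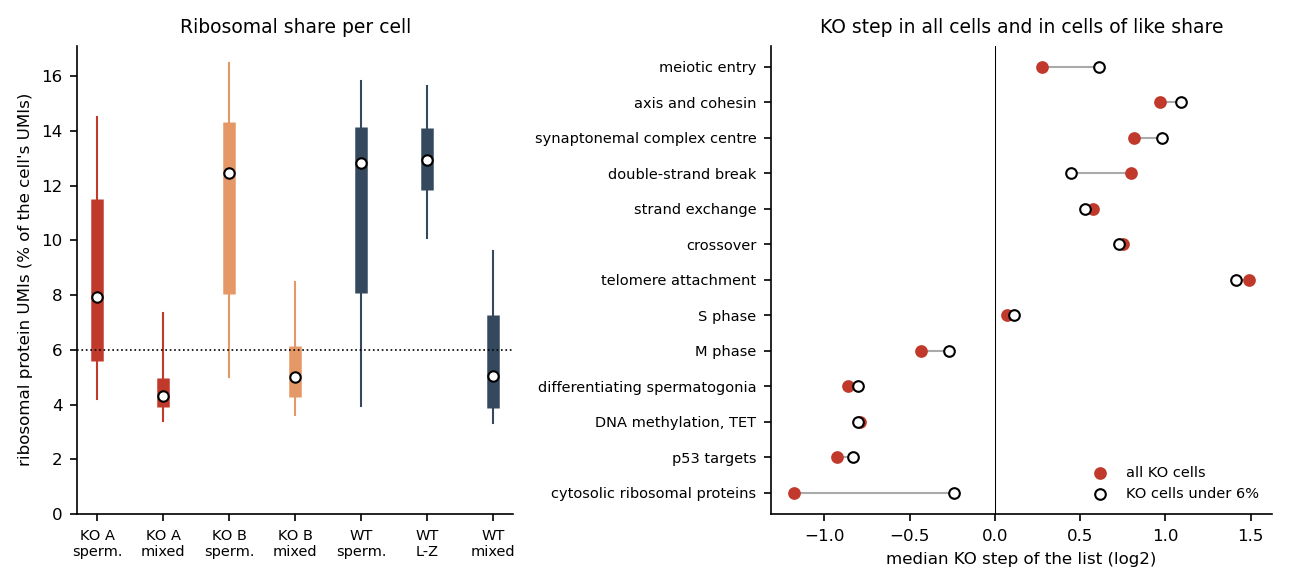
Left, percent of each cell's UMIs in cytosolic ribosomal protein genes (y axis) by library and cluster (x axis), with the median as a point, the quartiles as a box and the 5th to 95th percentiles as a line; the dotted line is 6%. Right, median KO step (x axis, log2) of each gene list in all KO cells (filled) and in KO cells under 6% (open); the pooled prophase medians are 0.80 and 0.79.

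Partners of YTHDC2 and the machinery of N6-methyladenosine were read at the same time. Xrn1, the exonuclease that binds YTHDC2, went from 1.02 to 0.69 in KO A, from 1.06 to 0.691 in KO B and from 0.815 to 0.496 in WT, steps of -0.58 and -0.70. Rbm46, an RNA-binding protein of the same complex, was not called (-0.01). Of 15 tested genes of the methylation machinery, 6 rose, 4 fell and 5 were not called, beside 30% and 34.9% over all genes. Ythdf2, a cytoplasmic reader that promotes mRNA decay, went from 0.811 to 1.67, from 0.914 to 1.38 and from 1.1 to 2.02, steps of 0.81 and 0.87. Mettl3, the methyltransferase subunit, rose by 0.48 (WT -0.15) and Wtap by 0.56 (WT -0.06).

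The authors' gene scores for a U-rich motif did not sort the KO step. Median steps ran from -0.08 in genes scored 0 to -0.02 in the 2123 lowest of the other genes and -0.03 in the 2122 highest. Genes on the X chromosome had a median of -0.03, with 102 of 339 higher and 108 lower, beside 30% and 34.9% over all genes.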

How the data were processed

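Single-cell RNA-seq libraries of sorted 4N cells (1 WT, 2 Ythdc2 KO) were used; the bulk RNA-seq and iCLIP samples of the series were not analysed here. Per the submitters' processing notes, the authors used Cell Ranger 3.0.2 and Scanpy with mm10/GRCm38. The deposited matrix (4528 cells, 14103 genes) was stored by the authors on a natural log scale, as the logarithm of 1 plus the UMI count over a size factor, which is deposited as a score per cell. The deposited cell table also gives UMI counts, a mitochondrial fraction, clusters, genotype and a per-cell log2 value for U-rich motif genes, and the deposited gene table a U-motif score. Every cell held at least 3000 genes and under 20% mitochondrial UMIs. Undoing the log gave whole counts for 100% of values (within 0.001), holding 99.9% of the deposited UMI counts. Scrublet (Scanpy 1.11.5) called 5 of 1522 KO A, 11 of 1855 KO B and 6 of 1151 WT cells as doublets; so few calls leave most doublets undetected, if there were any, and the cells were kept.

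Which KO sample is KO A and which KO B could not be settled. limma 3.58.1 (R 4.3.3) was applied to log2 levels (pseudocount 0.01) of genes averaging 0.05 or more over the groups. edgeR on raw counts had been planned as the main test; as natural log values are deposited, the recovered counts went into edgeR 4.0.16 and DESeq2 1.42.0 as alternatives. Pairing within library comes from the design, since both clusters of a pair are from 1 library. On simulated data for the KO step (9503 genes), 96 of 100 genes changed by 1 (log2) and 100 of 100 changed by 2 were called. The simulated spread beyond counting noise was the same for every gene, so the run cannot test the pooled spread used for real genes. The comparison and the gene lists were chosen with earlier results of these data known. Named genes were a set of 25 anchors, the members with the largest step or difference in each list, and over all genes the 12 largest KO steps and 10 largest differences in each direction with at least 20 CPM. Predicted genes were left out of these. Promoters came from RefSeq (GRCm38.p6).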

Additional observations from a re-analysis of the deposited data

Results flagged for a closer look

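Steps that differed between KO and WT under the same contrast, by limma's test of the difference, are given here as KO minus WT (log2), with no explanation weighed. Over all genes 2546 were called higher and 1922 lower. WT was 1 library, so genotype and library cannot be told apart, and its later cluster carries another name. Among genes of mitosis the differences were 3.19 for Plk1, 3.14 for Bub3, 3.00 for Aurka, 2.72 for Cdk1 and 2.48 for Ccnb1. Spermatogonial regulators gave 2.40 for Dmrtb1, 2.37 for Sohlh1, 1.35 for Kit and 0.54 for Dmrt1. The others higher in KO among the widest were Lpcat1 (3.69), Mex3d (3.27), Tuba1b (3.21), Zbtb14 (3.10), March9 (3.01), Tcea3 (2.92) and Dusp1 (2.90). Lpcat1 passed the filter only through the KO mixed cluster, so its value is no test of a difference.

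Lower in KO were Figla (-2.93), Syn2 (-2.72), Aph1b (-2.63), Eaf2 (-2.61), Klc3 (-2.53), Fbxo36 (-2.46), Fgf11 (-2.44), Rps12 (-2.42), Atf7ip2 (-2.40) and Rpl35 (-2.36). Meiotic anchors gave -1.41 for Stra8, -1.10 for Prdm9, -1.07 for Sycp3, -0.95 for Ccnb3, -0.88 for Smc1b, -0.75 for Hormad1, -0.48 for Sycp1 and -0.42 for Dmc1. The cohesin genes Rec8 and Stag3 were higher, by 0.69 and 0.30, the latter not called in edgeR. The transcript of Ythdc2 itself differed by -0.44. Spo11 gave -2.89, but passed the filter only through the WT leptotene-zygotene cells, with KO libraries of opposite sign, so this value is no test of a difference.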

How the results depend on the processing

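Besides the values given here, the counts over all genes stayed within 1.5 times of those reported in the settings run. Counts of called differences within lists moved more: DESeq2 called 3 strand exchange (limma 9), 5 replication (limma 15) and 2 DNA methylation genes (limma 5), and 1 repressor higher (limma 6). The strand exchange counts were over 16 genes, some of which passed the filter only through the WT groups. Among the 14 also tested for the KO step, limma called 7 lower. The samples are paired by library; with no replicate block, 2565 genes rose and 2936 fell, and 5501 of the calls were shared with the paired fit. Testing only genes with a mean of at least 0.5 left 1538 higher and 1617 lower in KO and 1252 and 1245 for the difference, since fewer genes were tested. DESeq2 called 1881 lower in KO and 566 and 742 for the difference, with 1287 genes lacking an adjusted p. Thinning each cell to 5000 UMIs gave 2150 lower in KO and 1006 lower for the difference. It moved the median difference of all genes from 0.07 to 0.23, the share of higher calls from 57% to 71.4% for the difference and from 46.2% to 56% for the KO step (DESeq2 43.3% for the difference). The cause was not tested.

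Of WT risers, the share also rising in KO was 73.7% with DESeq2, 91.8% with a mean of at least 0.5, 88.1% thinned and 93.6% at a WT step of at least 2. Of WT fallers it was 73.2% with TMM scaling, 74.3% with edgeR, 58.8% with DESeq2, 82.5% with a pseudocount of 0.1, 63.1% thinned and 90.4% at a WT step of at least 2. Leaving out one KO library, which leaves 1 pair and no test, gave 594 to 642 genes rising and 656 to 735 falling by at least 1. Without KO B or KO A, the Hbb-bs difference was -6.65 or 0.086, the Hba-a2 step -6.70 or 0.50, its difference -7.08 or 0.11 and the Mex3d step -0.48 or 0.033. The Sun1 difference turned to 0.076 in thinned cells, and the KO steps of Aurka (-0.012) and Clgn (0.18) turned in cells under 6% ribosomal UMIs. Of 293 called values of 186 named genes, DESeq2 lost the call of 71, thinning 24, no filter 20, edgeR 15, doublets left out 14, TMM 12, no block 9, and a pseudocount of 0.1 and a mean of at least 0.5 lost 5 each. Of 157 KO steps, 14 lost it under 6% ribosomal UMIs. Without the globin-rich cell, also left out after seeing the data, 2852 genes rose and 3314 fell. Depth limits low genes such as Spo11.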

Other observations

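Of 9 tested genes of glycolysis (16 on the list), 6 rose, 2 fell and 1 was not called in KO, beside 30% and 34.9% over all genes, with a median step of 0.54 in KO and -0.85 in WT. Pkm, pyruvate kinase, went from 0.798 to 2.03 in KO A, from 0.665 to 2.02 in KO B and from 0.618 to 1.45 in WT, steps of 1.46 and 1.22. Aldoa, aldolase, went from 0.335 to 0.573, from 0.283 to 0.494 and from 0.254 to 0.136, a difference of 1.62. Pgam1, phosphoglycerate mutase, stood higher in both KO clusters (1.5 to 1.88) than in WT (0.75 and 0.387). Gapdh fell by 0.33 on the log2 scale in KO, a call lost in cells of like ribosomal share (-0.04), and Hk1, hexokinase, fell by 1.46.

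Among tubulins 3 of 9 rose, 2 fell and 4 were not called, near the share of all genes that rose (30%). Tubb5, a beta tubulin, went from 0.512 to 2.44 in KO A, from 0.338 to 2.18 in KO B and from 0.257 to 0.311 in WT, steps of 2.44 and 0.27 (limma adjusted p = 4.64e-100 in KO). Of 12 tested genes of the integrated stress response, 6 fell, 2 rose and 4 were not called, beside 34.9% and 30% over all genes (median -0.30 in KO, -0.63 in WT). Shmt2, an enzyme of serine use, had steps of -1.80 in KO and -2.35 in WT, and Psat1, of serine synthesis, -1.52 and -1.15. Trib3, a pseudokinase of this response, rose by 1.25 (WT 0.78) and Sesn2 by 0.73 (WT 1.98). In the retinoic acid list 2 of 8 rose, 3 fell and 3 were not called, beside 30% and 34.9% over all genes. Crabp1, a carrier of retinoic acid, went from 2.11 to 1.1, from 2.32 to 1.34 and from 2.28 to 0.851, steps of -0.86 and -1.41. Aldh1a2, which makes retinoic acid, rose by 0.45 in KO and by 1.68 in WT; its KO call was lost in cells of like ribosomal share (0.22).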
